A study of Homo sapiens with 6 samples.

Results

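Transcript levels of 10 genes that set the fate of pyruvate were followed in MDA-MB-231 cells after knockdown of PHF20L1. The genes were chosen by name, with earlier results of these data known, from the 17452 listed in the files, and all 10 were found. They are the lactate transporter genes SLC16A1 and SLC16A3 with the gene of their chaperone, BSG, the mitochondrial pyruvate carrier genes MPC1 and MPC2, the pyruvate dehydrogenase genes PDHA1, PDHB and DLAT, and the pyruvate dehydrogenase kinase genes PDK1 and PDK3. In siPHF20L1 libraries DLAT and PDHB fell more than 2-fold, and SLC16A3, MPC2, PDK1 and PDK3 fell by less. PDHA1, BSG and MPC1 did not pass the main test, which left out pairing by library number. With that pairing PDHA1 and BSG passed as lower. SLC16A1 lay near 0 in both groups and was not tested.

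Pyruvate made by glycolysis in the cytosol has a choice of routes. It can be reduced to lactate and leave the cell with a proton through monocarboxylate transporters, of which MCT4 (SLC16A3) is the one known from strongly glycolytic cells and MCT1 (SLC16A1) the more widely expressed one, and both need basigin (BSG) to reach the plasma membrane. It can instead enter mitochondria through the carrier formed by MPC1 and MPC2 and be turned into acetyl-CoA by the pyruvate dehydrogenase complex, which PDK kinases switch off by phosphorylating its E1 alpha subunit and PDP phosphatases switch on again. SLC16A3 and PDK1 are well-known targets of the hypoxia-inducible factors, and high lactate export is a known trait of aggressive breast cancer lines.

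PHF20L1 is a reader of methylated lysines with Tudor domains and a PHD finger, and the study looked for the genes whose transcription depends on it. MDA-MB-231 is an established human line from a triple-negative breast tumour, grown in L-15 medium with serum and without added CO2. The siPHF20L1 group held 3 libraries of cells transfected with siRNA against PHF20L1, and the siControl group held 3 libraries of cells that the labels call control, with no other allele or agent named for either. The protocols name a pair of lipid reagents without saying which served which sample, and the sources used here give no siRNA sequence and no time of harvest. Poly-A RNA was sequenced from a stranded kit. The labels do not say whether a group's libraries came from separate cultures, so p-values measure the spread between these samples alone, and that spread may be technical.

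PHF20L1 itself stood at 2.67, 2.31 and 2.74 FPKM in siPHF20L1 libraries 1, 2 and 3, against 15.75, 12.48 and 12.73 FPKM in siControl libraries 1, 2 and 3, so that every library followed its label (log2 difference -2.03, SE 0.10, limma, adjusted p = 1.46e-06). FPKM are fragments scaled to transcript length and library size, as deposited. Depth, estimated from the steps of the lowest values, was 17100000 to 17500000 fragments per library. The libraries numbered 1 stood apart from those numbered 2 and 3 in both groups. The mean chi-square per gene between numbers 2 and 3 was 1.77 in the siPHF20L1 group and 2.03 in the siControl group, against 11.2 to 14.31 for pairs with a library numbered 1. Values for the number 1 alone (1 library against 1, no test) and for the numbers 2 and 3 alone are therefore given beside the main ones. The numbers 2 and 3 of a group lay so close that they may not be independent. The p-values from these alone may thus be too small. Of 8 markers of the line, VIM and CD44 stood at 1009.95 to 1024.41 and 137.95 to 141.49 FPKM in siPHF20L1 libraries and at 1612.83 to 1644.01 and 137.44 to 142.66 FPKM in siControl libraries, and ESR1, the oestrogen receptor gene, was listed at 0 in all 6 libraries. Of the 8, VIM, AXL, CAV1 and ZEB1 were lower, FN1 and TGFBI were higher, CD44 did not pass and SPARC was not tested. SPARC had 0.647 ± 0.032 FPKM in siPHF20L1 and 1.06 ± 0.13 FPKM in siControl libraries, and TGFBI had 6.97 ± 0.89 FPKM in siPHF20L1 and 3.06 ± 0.19 FPKM in siControl libraries (SD, n = 3 each), so that these 2 were low in the line. The summed FPKM of all 8, to which VIM and AXL gave most, was 1630.16 to 1635.99 in siPHF20L1 libraries and 2499.04 to 2521.42 in siControl libraries. That of 9 luminal epithelial markers was 349.21 to 395.26 in siPHF20L1 and 322.97 to 376.6 in siControl libraries, that of 4 leukocyte markers 4.41 to 5.51 in siPHF20L1 and 5.06 to 6.18 in siControl libraries, and that of 4 fibroblast and endothelial markers 2.11 to 2.47 in siPHF20L1 and 1.73 to 2.04 in siControl libraries. KRT8 and KRT18 gave most of the luminal sum. KRT8 had 200 ± 17.6 FPKM in siPHF20L1 and 179 ± 15.0 FPKM in siControl libraries. KRT18 had 140 ± 8.96 FPKM in siPHF20L1 and 143 ± 13.5 FPKM in siControl libraries (SD, n = 3 each). Of the 9 luminal genes, ERBB2 and EPCAM were higher, FOXA1 was lower, and KRT8, KRT18 and GATA3 did not pass. ESR1, PGR and CDH1 were not tested. The part of these levels in the results was not tested.

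The genomic windows at which these transcripts begin are shown for the members that fell most (DLAT, PDHB and SLC16A3) and, beside them, for PDHA1, the subunit gene of the same complex that did not pass. Promoter windows of 300 bases (250 before and 50 after the start) come from RefSeq on GRCh38.p14, a later build than the GRCh37 of the expression values, and 9 of the 10 members had at least 1. They are written 5′ to 3′ on the gene's strand, and capitals mark ACGTG or GCGTG on either strand (read as CACGT or CACGC on the other), the core letters of hypoxia response elements.

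DLAT, chr11:112025158-112025457, plus strand: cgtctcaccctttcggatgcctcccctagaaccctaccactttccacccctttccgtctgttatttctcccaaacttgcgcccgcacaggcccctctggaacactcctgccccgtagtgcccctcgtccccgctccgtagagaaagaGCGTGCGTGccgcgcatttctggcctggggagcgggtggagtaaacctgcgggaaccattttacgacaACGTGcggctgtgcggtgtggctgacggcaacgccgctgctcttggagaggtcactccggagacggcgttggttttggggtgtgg
PDHB, chr3:58433783-58434082, minus strand: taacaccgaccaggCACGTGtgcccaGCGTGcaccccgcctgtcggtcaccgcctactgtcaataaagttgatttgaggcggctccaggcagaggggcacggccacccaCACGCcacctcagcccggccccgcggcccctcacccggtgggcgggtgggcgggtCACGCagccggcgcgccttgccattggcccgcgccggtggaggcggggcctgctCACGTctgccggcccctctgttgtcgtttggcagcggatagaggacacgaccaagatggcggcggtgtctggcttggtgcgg
SLC16A3, chr17:82228792-82229091, plus strand: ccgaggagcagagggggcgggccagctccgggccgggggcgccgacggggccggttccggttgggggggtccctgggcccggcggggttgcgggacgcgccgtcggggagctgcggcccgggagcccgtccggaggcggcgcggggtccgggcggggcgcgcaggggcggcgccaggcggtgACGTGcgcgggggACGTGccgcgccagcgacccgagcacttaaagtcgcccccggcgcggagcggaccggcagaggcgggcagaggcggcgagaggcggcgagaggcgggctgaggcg
PDHA1, chrX:19343677-19343976, plus strand: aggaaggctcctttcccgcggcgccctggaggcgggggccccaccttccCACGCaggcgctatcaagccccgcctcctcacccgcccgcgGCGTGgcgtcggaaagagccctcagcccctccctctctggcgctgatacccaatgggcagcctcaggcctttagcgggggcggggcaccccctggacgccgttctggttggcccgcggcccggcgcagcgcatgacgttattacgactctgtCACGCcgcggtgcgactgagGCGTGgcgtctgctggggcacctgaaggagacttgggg

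The DLAT window held 1 match to ACGTG and 2 overlapping matches to GCGTG. The PDHB window held 3 matches to each, and 2 of its ACGTG matches read both strands of 1 E-box, CACGTG. The SLC16A3 window shown, 1 of 5 listed for that gene, held 2 matches to ACGTG, and the PDHA1 window held 4 to GCGTG. Such letters are common: 48.4% of 35116 promoter windows held at least 1 match, 23.1% at least 2, 10.1% at least 3 and 0.9% at least 6. Among the 13956 windows of genes tested here these shares were 61.0%, 32.0%, 14.6% and 1.4%. All 4 windows shown held matches, but for SLC16A3 this depends on the window chosen. Its windows not shown held 0, 0, 3 and 1 matches to either word, in order of position. Among the other members, BSG, MPC2 and PDK1 each had a window with 0 matches. A match is only a description of the letters in the window, and its part in the members' levels was not tested.

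Across all genes, 11560 had FPKM of at least 1 in at least 3 libraries and were tested with limma on log2(FPKM + 1). Every log2 difference below is siPHF20L1 minus siControl on that scale, which understates changes of low genes, and a gene passed at a Benjamini-Hochberg adjusted p under 0.05 over all genes tested. Of the 10 members 9 were tested, of which 6 were lower, 0 were higher (also 0 at an unadjusted p under 0.05) and 3 did not pass. Over all genes tested, 24.7% were lower, 34% were higher and 58.6% passed in either direction. These shares are the background for every count of genes that passed below. The median log2 difference was -0.34 over the 9 members tested and 0.05 over all genes tested. The members had been chosen with earlier results of these data known, so these counts and medians are not independent evidence. Bulk RNA cannot tell fewer cells of a type apart from less RNA per cell.

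**Figure D1:**
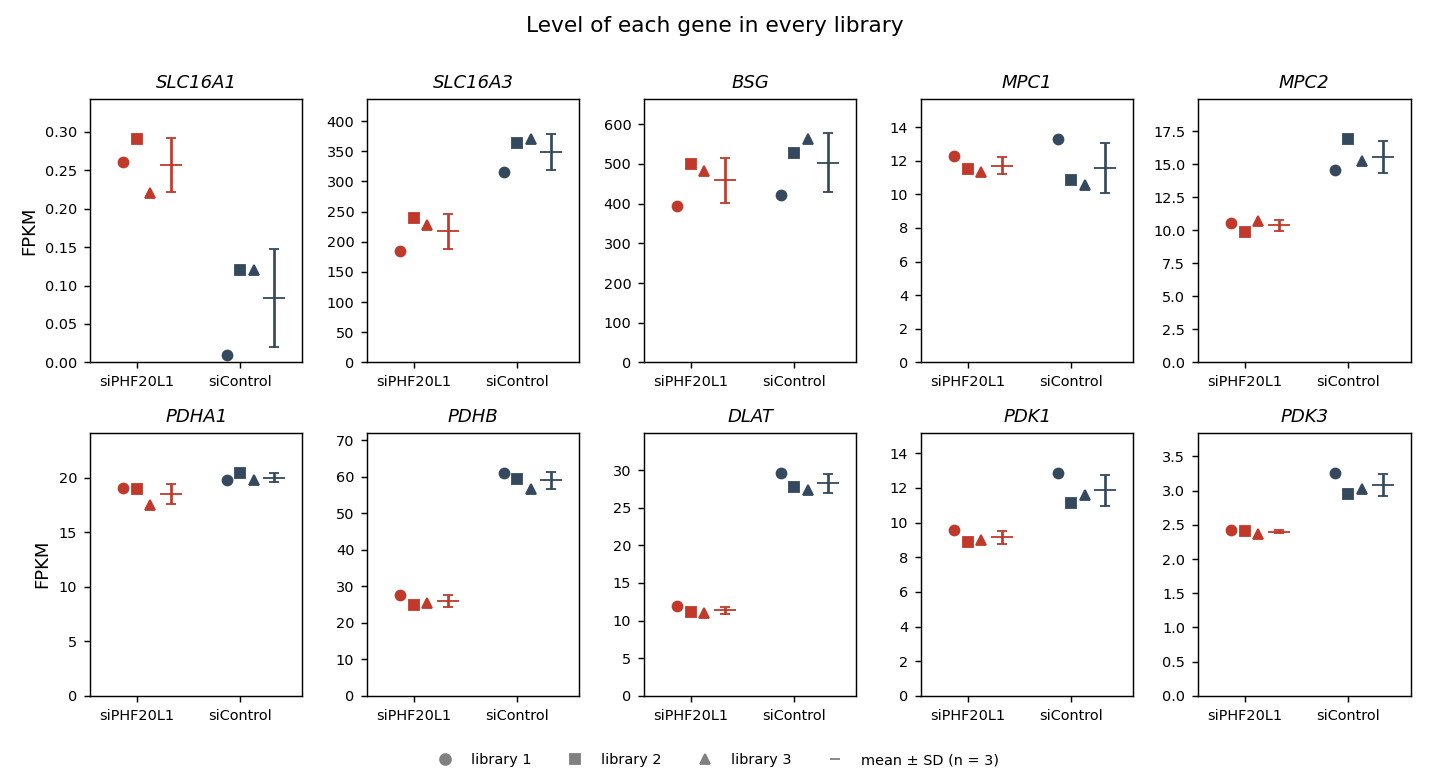
Level of each of the 10 genes in FPKM (vertical axes, each starting at 0), with the 3 siPHF20L1 libraries on the left and the 3 siControl libraries on the right of each panel; symbols mark the library number and bars the mean ± SD (n = 3). In SLC16A3, MPC2, PDHA1, PDHB, DLAT, PDK1 and PDK3 every siPHF20L1 library lies below every siControl library, in SLC16A1 every one lies above, and in BSG and MPC1 the groups overlap.

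The lactate transporters were expressed at very different levels. SLC16A3 (Entrez 9123), which encodes the exporter MCT4, had 184.39, 239.01 and 228.66 FPKM in siPHF20L1 libraries 1, 2 and 3, against 315.06, 363.75 and 369.83 FPKM in siControl libraries 1, 2 and 3. Library 1 was lowest in both groups, and the groups did not overlap. It averaged 217 ± 29.01 FPKM in siPHF20L1 libraries and 350 ± 30.0 FPKM in siControl libraries (SD, n = 3 each), 1.61-fold lower (log2 difference -0.69, SE 0.11, limma, adjusted p = 0.000634). For SLC16A3 the number 1 alone gave -0.77, and the numbers 2 and 3 gave -0.65. Among all genes listed, the level of SLC16A3 was at percentile 98.69 in siPHF20L1 libraries and 99.18 in siControl libraries. Per RefSeq its gene overlaps CSNK1D, and the sources used here do not say whether the counting used strand, which also bears on the other overlaps named below.

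SLC16A1 (Entrez 6566), which encodes MCT1, had 0.26, 0.29 and 0.22 FPKM in siPHF20L1 libraries 1, 2 and 3, against 0.01, 0.12 and 0.12 FPKM in siControl libraries 1, 2 and 3. Every siPHF20L1 value was above every siControl value, but these are about 18, 21 and 16 fragments in siPHF20L1 libraries against about 1, 9 and 9 in siControl libraries. The gene did not reach 1 FPKM in any library and was not tested. With no filter on low values it passed (log2 difference 0.22, limma, adjusted p = 0.0101), and the size of the difference on this scale depends on the pseudocount. No fold is given against so few fragments. Of this pair of transporters, SLC16A3 made up nearly all transcripts in both groups. The difference of SLC16A3 and SLC16A1 on the log2(FPKM + 1) scale averaged 7.43 ± 0.20 in siPHF20L1 libraries and 8.34 ± 0.04 in siControl libraries (SD, n = 3 each).

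BSG (Entrez 682), which encodes basigin, the membrane chaperone of both transporters, had 394.47, 498.83 and 481.83 FPKM in siPHF20L1 libraries 1, 2 and 3, against 421.15, 527.67 and 561.93 FPKM in siControl libraries 1, 2 and 3. Each siPHF20L1 library was below the siControl library of its number, and library 1 was lowest in both groups, which overlapped. The averages were 458 ± 56.0 FPKM in siPHF20L1 libraries and 504 ± 73.4 FPKM in siControl libraries (SD, n = 3 each), and the log2 difference of -0.13 (95% limits -0.42 and 0.15) did not pass (limma, adjusted p = 0.387). In the fit with a replicate block the same difference passed (limma, adjusted p = 0.0125). For BSG the number 1 alone gave -0.09, and the close numbers 2 and 3, which may not be independent, gave -0.15 (limma, adjusted p = 0.0108).

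Further transporter genes of the family went both ways. SLC16A7, the gene of a further lactate and pyruvate transporter, MCT2, was low, at 3.10 ± 0.63 FPKM in siPHF20L1 libraries and 3.46 ± 0.61 FPKM in siControl libraries (SD, n = 3 each), and its log2 difference of -0.12 did not pass (limma, adjusted p = 0.45). EMB, whose product embigin is the chaperone of that transporter, rose to 10.2 ± 1.02 FPKM in siPHF20L1 libraries, against 7.31 ± 0.74 FPKM in siControl libraries (SD, n = 3 each; log2 difference 0.43, limma, adjusted p = 0.00401). Of 5 further SLC16 genes tested, 2 were higher, 2 were lower and 1 did not pass. SLC16A6, for MCT7, had 9.09, 7.98 and 8.88 FPKM in siPHF20L1 libraries, against 1.72, 1.39 and 1.27 FPKM in siControl libraries. Every siPHF20L1 library was above every siControl library (log2 difference 1.97, limma, adjusted p = 1.17e-06).

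Of 7 genes for relatives of basigin, its extracellular cyclophilin ligands and amino acid transporters found in complex with it, 5 were higher, 1 was lower and 1 did not pass, with a median log2 difference of 0.43. The glutamine transporter gene SLC1A5 rose to 136 ± 13.3 FPKM in siPHF20L1 libraries, against 77.8 ± 5.23 FPKM in siControl libraries (SD, n = 3 each; log2 difference 0.79). SLC3A2, for the heavy chain CD98, rose to 175 ± 18.5 FPKM in siPHF20L1 libraries, against 105 ± 10.2 FPKM in siControl libraries (SD, n = 3 each; log2 difference 0.74). PPIB, for cyclophilin B, a ligand of basigin, rose to 206 ± 7.11 FPKM in siPHF20L1 libraries, against 118 ± 4.64 FPKM in siControl libraries (SD, n = 3 each; log2 difference 0.80). The 1 lower gene was PPIA, for the related ligand cyclophilin A and named after its value was seen, at 229 ± 6.31 FPKM in siPHF20L1 libraries, against 356 ± 21.3 FPKM in siControl libraries (SD, n = 3 each; log2 difference -0.63, limma, adjusted p = 5.07e-05).

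Of the subunit genes of the pyruvate carrier, MPC2 fell and MPC1 did not pass. MPC2 (Entrez 25874) had 10.55, 9.89 and 10.71 FPKM in siPHF20L1 libraries 1, 2 and 3, against 14.58, 16.9 and 15.25 FPKM in siControl libraries 1, 2 and 3. All siPHF20L1 libraries were below all siControl libraries. It averaged 10.4 ± 0.44 FPKM in siPHF20L1 libraries and 15.6 ± 1.19 FPKM in siControl libraries (SD, n = 3 each), 1.50-fold lower (log2 difference -0.54, SE 0.07, limma, adjusted p = 0.000298). The number 1 alone gave -0.43, and the numbers 2 and 3 gave -0.59. MPC2 overlaps DCAF6.

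MPC1 (Entrez 51660), the other subunit of the carrier, had 12.26, 11.53 and 11.3 FPKM in siPHF20L1 libraries 1, 2 and 3, against 13.27, 10.85 and 10.53 FPKM in siControl libraries 1, 2 and 3. Library 1 was highest in both groups, and the siControl values lay on both sides of the siPHF20L1 values. The log2 difference was 0.02 (95% limits -0.18 and 0.23, limma, adjusted p = 0.846), and its sign changed with the scaling (-0.03 with median-ratio factors, -0.05 with quantile normalization). Number 1 alone gave -0.11 for MPC1, and numbers 2 and 3 gave 0.09 (limma, adjusted p = 0.157). The FPKM ratio of MPC1 to MPC2 was 1.13 ± 0.06 in siPHF20L1 libraries and 0.748 ± 0.143 in siControl libraries (SD, n = 3 each), without overlap. An exact permutation test over libraries, on the difference of the genes' log2(FPKM + 1), gave p = 0.1 (two-sided), the smallest p that 3 against 3 libraries allow, and 0.125 adjusted over the 5 ratios computed, so no such ratio could pass.

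The pyruvate dehydrogenase complex gave the largest differences among the members. DLAT (Entrez 1737), the gene of the E2 core that passes the acetyl group to coenzyme A, had 11.91, 11.14 and 11.04 FPKM in siPHF20L1 libraries 1, 2 and 3, against 29.64, 27.74 and 27.36 FPKM in siControl libraries 1, 2 and 3. The libraries of each group lay close together and the groups far apart. The mean was 11.4 ± 0.48 FPKM in siPHF20L1 libraries and 28.2 ± 1.22 FPKM in siControl libraries (SD, n = 3 each), 2.49-fold lower (log2 difference -1.24, SE 0.06, limma, adjusted p = 1.55e-06). Number 1 alone gave -1.25 for DLAT, and numbers 2 and 3 gave -1.24. DLAT overlaps PIH1D2.

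PDHB (Entrez 5162), for the E1 beta subunit of the decarboxylase, had 27.72, 24.76 and 25.41 FPKM in siPHF20L1 libraries 1, 2 and 3, against 61.06, 59.34 and 56.51 FPKM in siControl libraries 1, 2 and 3. Again no values overlapped. The mean was 26.0 ± 1.56 FPKM in siPHF20L1 libraries and 59.0 ± 2.30 FPKM in siControl libraries (SD, n = 3 each), 2.27-fold lower (log2 difference -1.15, SE 0.06, limma, adjusted p = 2.3e-06). Number 1 alone gave -1.11 for PDHB, and numbers 2 and 3 gave -1.18. DLAT and PDHB were the members lower by at least 2-fold, as were 1.89% of all genes tested, and 0 of the 9 members tested were higher by at least 2-fold, as were 3.34% of all genes tested.

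PDHA1 (Entrez 5160), for the E1 alpha subunit that the kinases phosphorylate, had 19.11, 18.96 and 17.49 FPKM in siPHF20L1 libraries 1, 2 and 3, against 19.82, 20.47 and 19.78 FPKM in siControl libraries 1, 2 and 3. The siPHF20L1 libraries were all lower, by little. The mean was 18.5 ± 0.90 FPKM in siPHF20L1 libraries and 20.0 ± 0.39 FPKM in siControl libraries (SD, n = 3 each), and the log2 difference of -0.11 (95% limits -0.25 and 0.03) did not pass (limma, adjusted p = 0.152). In the fit with a replicate block it passed at the same size (limma, adjusted p = 0.0318). Number 1 alone gave -0.050 for PDHA1, and the close numbers 2 and 3, which may not be independent, gave -0.14 (limma, adjusted p = 0.0405). PDHA1 overlaps MAP3K15.

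The E1 subunits form a tetramer of equal numbers of alpha and beta chains, so the balance of their transcripts was followed within each library. The FPKM ratio of PDHB to PDHA1 was 1.45, 1.31 and 1.45 in siPHF20L1 libraries, against 3.08, 2.90 and 2.86 in siControl libraries. The ratio of DLAT to PDHA1 was 0.623, 0.588 and 0.631 in siPHF20L1 libraries, against 1.50, 1.36 and 1.38 in siControl libraries. Both ratios were lower in every siPHF20L1 library, and DLAT transcripts were fewer than those of PDHA1 per length in siPHF20L1 libraries but more in siControl libraries. Taken as differences of log2(FPKM + 1), the pairs differed between the groups by -1.13 for DLAT and -1.05 for PDHB relative to PDHA1, each with an exact permutation p of 0.1, the smallest possible, and 0.125 adjusted over 5.

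**Figure D2:**
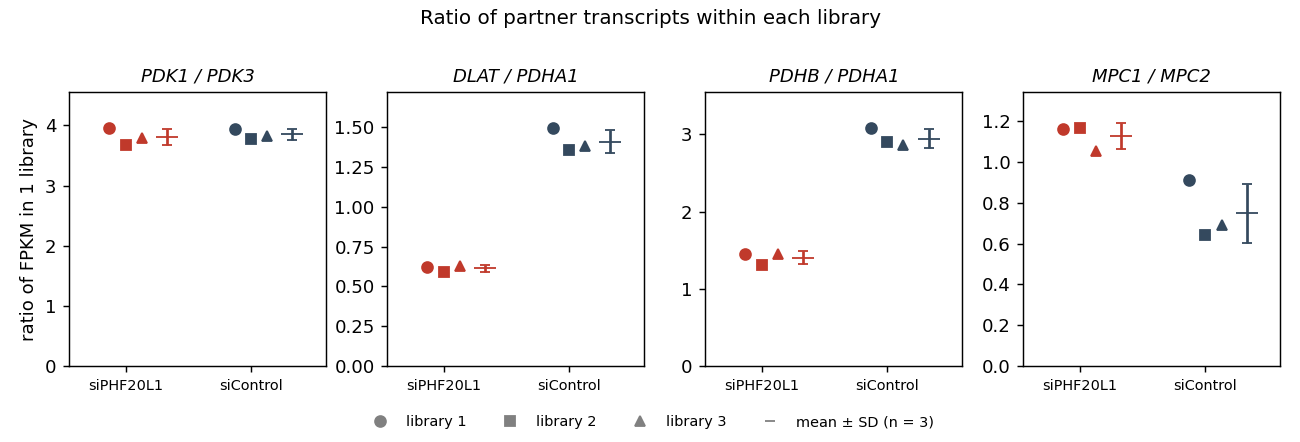
FPKM ratio of partner transcripts within each library (vertical axes, starting at 0) for 4 pairs, with siPHF20L1 on the left and siControl on the right of each panel; symbols mark the library number and bars the mean ± SD (n = 3). DLAT/PDHA1 (0.614 in siPHF20L1, 1.41 in siControl) and PDHB/PDHA1 (1.40 in siPHF20L1, 2.95 in siControl) are lower and MPC1/MPC2 is higher in every siPHF20L1 library, and PDK1/PDK3 overlaps.

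Of the subunit genes outside the 10, PDHX fell and DLD did not pass. PDHX, for the protein that anchors E3 to the core, fell to 14.5 ± 1.77 FPKM in siPHF20L1 libraries, against 20.8 ± 1.50 FPKM in siControl libraries (SD, n = 3 each; log2 difference -0.50, limma, adjusted p = 0.00178). DLD, for the E3 subunit shared with the sister complexes of other oxoacids, had 17.5 ± 2.56 FPKM in siPHF20L1 libraries and 18.5 ± 2.83 FPKM in siControl libraries (SD, n = 3 each; log2 difference -0.07, limma, adjusted p = 0.649). Of the 5 subunit genes tested 3 were thus lower, 0 were higher (limma, also 0 at an unadjusted p under 0.05) and 2 did not pass, with a median of -0.50. Of all genes tested, 24.7% were lower, 34% were higher and 58.6% passed in either direction.

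The sister complexes, which act on 2-oxoglutarate, 2-oxoadipate and branched-chain oxoacids with the same chemistry, went mostly the other way. Of 8 genes tested 6 were higher, 1 was lower and 1 did not pass, with a median log2 difference of 0.36. Over all genes tested 34% were higher. Unlike the pyruvate dehydrogenase subunit genes above, the 8 include the regulator genes BCKDK and PPM1K and leave out the shared DLD. BCKDHA, for the E1 alpha subunit of the branched-chain complex, rose to 16.8 ± 2.41 FPKM in siPHF20L1 libraries, against 10.3 ± 1.48 FPKM in siControl libraries (SD, n = 3 each; log2 difference 0.66). DBT, for its E2 core, rose to 4.78 ± 0.69 FPKM in siPHF20L1 libraries, against 3.01 ± 0.34 FPKM in siControl libraries (SD, n = 3 each; log2 difference 0.52). BCKDK, for its kinase, rose by 0.70 on the log2 scale. These 3 genes had adjusted p of 0.00193, 0.00263 and 0.00196 (limma). The 1 lower gene was DLST, for the E2 core of the 2-oxoglutarate complex and named after its value was seen. It had 50.02 ± 2.30 FPKM in siPHF20L1 libraries, against 59.6 ± 1.86 FPKM in siControl libraries (SD, n = 3 each; log2 difference -0.25, limma, adjusted p = 0.00527). The other E2 cores thus went both ways, DBT higher and DLST lower.

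All these complexes need lipoic acid on their E2 cores. Of 8 genes for mitochondrial fatty acid synthesis and lipoylation tested, 1 was higher, 1 was lower and 6 did not pass, with a median of 0.04. GCSH, whose product carries lipoate in the glycine cleavage system, fell to 9.88 ± 0.71 FPKM in siPHF20L1 libraries, against 14.9 ± 0.45 FPKM in siControl libraries (SD, n = 3 each; log2 difference -0.55, limma, adjusted p = 0.000222). OXSM, a synthase of the fatty acid precursor, rose to 7.22 ± 0.18 FPKM in siPHF20L1 libraries, against 5.04 ± 0.31 FPKM in siControl libraries (SD, n = 3 each).

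Both kinase genes fell. PDK1 (Entrez 5163) had 9.57, 8.86 and 8.99 FPKM in siPHF20L1 libraries 1, 2 and 3, against 12.87, 11.15 and 11.6 FPKM in siControl libraries 1, 2 and 3. All siPHF20L1 libraries were below all siControl libraries, and library 1 was highest in both groups. The mean was 9.14 ± 0.38 FPKM in siPHF20L1 libraries and 11.9 ± 0.89 FPKM in siControl libraries (SD, n = 3 each), 1.30-fold lower (log2 difference -0.34, SE 0.07, limma, adjusted p = 0.00369). Number 1 alone gave -0.39 for PDK1, and numbers 2 and 3 gave -0.32.

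PDK3 (Entrez 5165), for a kinase known as little sensitive to pyruvate, had 2.42, 2.41 and 2.37 FPKM in siPHF20L1 libraries 1, 2 and 3, against 3.26, 2.95 and 3.03 FPKM in siControl libraries 1, 2 and 3. The siPHF20L1 libraries were nearly equal and all lower. With 2.40 ± 0.03 FPKM in siPHF20L1 libraries and 3.08 ± 0.16 FPKM in siControl libraries (SD, n = 3 each), it was 1.28-fold lower (log2 difference -0.26, SE 0.07, limma, adjusted p = 0.0116). Number 1 alone gave -0.32 for PDK3, and numbers 2 and 3 gave -0.24. PDK3 rested on about 76 to 79 fragments per siPHF20L1 library and 94 to 104 per siControl library, and it did not pass with the close libraries 2 and 3 averaged to 1 sample (limma, adjusted p = 0.0753). The FPKM ratio of PDK1 to PDK3 was 3.81 ± 0.14 in siPHF20L1 libraries and 3.85 ± 0.09 in siControl libraries (SD, n = 3 each), and the groups overlapped. On the log2(FPKM + 1) scale, which is not the log2 of these FPKM ratios, the difference of PDK1 and PDK3 was -0.08 in siPHF20L1 relative to siControl libraries (exact permutation p = 0.2, and 0.2 adjusted over 5).

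The remaining kinases and the opposing phosphatases complete this switch. PDK2, the kinase gene with the widest tissue range, fell to 14.5 ± 0.68 FPKM in siPHF20L1 libraries, against 18.0 ± 1.25 FPKM in siControl libraries (SD, n = 3 each; log2 difference -0.29, limma, adjusted p = 0.0069). PDK4, known to be induced by fasting, was under 1 FPKM in every library and was not tested, at 0.67 ± 0.06 FPKM in siPHF20L1 libraries and 0.777 ± 0.090 FPKM in siControl libraries (SD, n = 3 each). All 3 kinase genes tested were thus lower, as were 24.7% of all genes tested. Of the 6 kinase and phosphatase genes tested together, 3 were lower, 2 were higher and 1 did not pass.

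The phosphatase side was higher or not past the threshold. PDP1, the catalytic subunit gene, rose to 12.4 ± 1.24 FPKM in siPHF20L1 libraries, against 9.39 ± 1.04 FPKM in siControl libraries (SD, n = 3 each; log2 difference 0.37, limma, adjusted p = 0.00981). PDPR, for the regulatory subunit, rose to 18.6 ± 0.63 FPKM in siPHF20L1 libraries, against 14.4 ± 0.55 FPKM in siControl libraries (SD, n = 3 each; log2 difference 0.35, limma, adjusted p = 0.00117). PDP2 had 6.38 ± 0.35 FPKM in siPHF20L1 libraries and 5.60 ± 0.48 FPKM in siControl libraries (SD, n = 3 each; log2 difference 0.16), which did not pass (limma, adjusted p = 0.11) but did with the replicate block (adjusted p = 0.0188). PDK2 and PDP1 did not pass with libraries 2 and 3 averaged (limma, adjusted p = 0.06 and 0.0565).

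**Figure D3:**
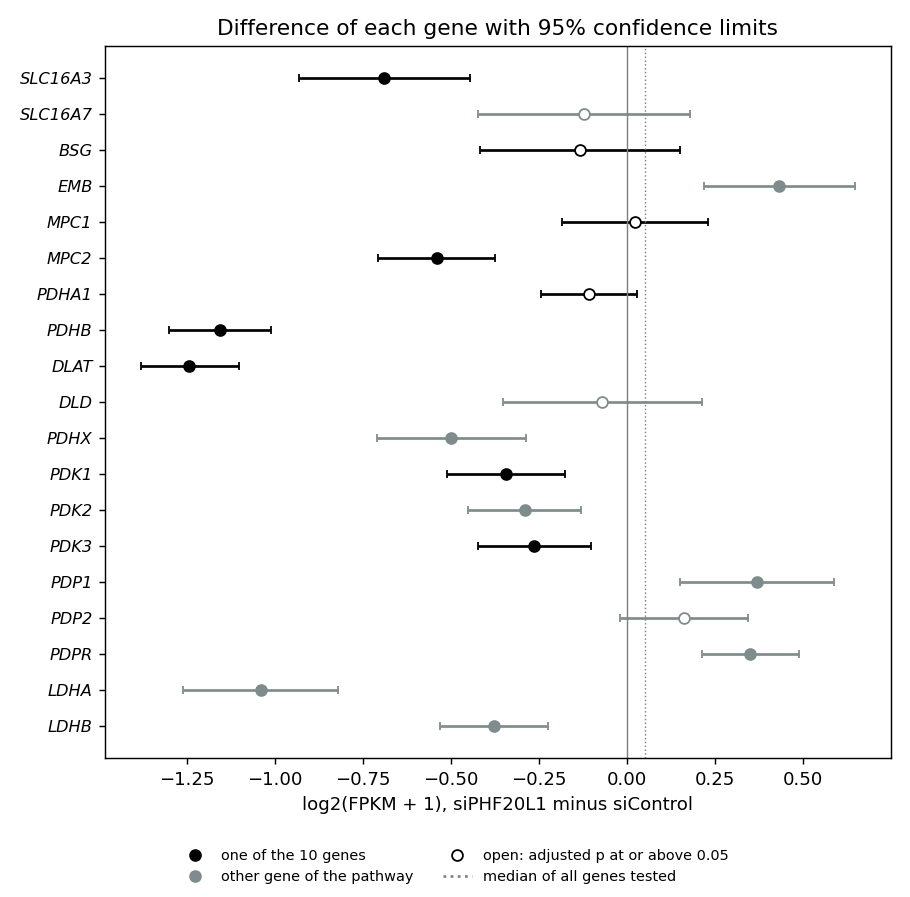
Log2 difference of FPKM + 1, siPHF20L1 minus siControl (horizontal axis), with 95% limits of the limma fit for the 9 members tested (black) and 10 other genes of the pathway (grey); open points did not pass and the dotted line is the median of all genes tested. DLAT (-1.24), PDHB (-1.15) and LDHA (-1.04) lie farthest to the left, the kinase genes PDK1, PDK2 and PDK3 lie between -0.34 and -0.26, and EMB, PDP1 and PDPR lie to the right of 0.

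Genes that make or use pyruvate, listed together with PCK2, which does neither directly, went both ways. Of 9 tested 5 were higher and 4 were lower, with a median of 0.24. PKM, for pyruvate kinase and named after its value was seen, was among the lower ones. It had 876 ± 15.9 FPKM in siPHF20L1 libraries, against 1261 ± 24.3 FPKM in siControl libraries (SD, n = 3 each; log2 difference -0.52, limma, adjusted p = 0.000115). Both lactate dehydrogenase genes tested were lower, LDHA by 1.04 on the log2 scale, at 740.56, 606.63 and 599.95 FPKM in siPHF20L1 libraries, against 1432.45, 1272.36 and 1289.19 FPKM in siControl libraries (limma, adjusted p = 3.5e-05). LDHB, for the subunit that favours pyruvate formation, fell to 265 ± 15.4 FPKM in siPHF20L1 libraries, against 344 ± 18.6 FPKM in siControl libraries (SD, n = 3 each; log2 difference -0.38, limma, adjusted p = 0.00142). Higher were PCK2, which makes phosphoenolpyruvate in mitochondria (8.64 ± 1.28 FPKM in siPHF20L1 and 3.37 ± 0.44 FPKM in siControl libraries, log2 difference 1.14), and GPT2, which interconverts pyruvate and alanine (16.7 ± 1.78 FPKM in siPHF20L1 and 8.53 ± 0.96 FPKM in siControl libraries, log2 difference 0.90; SD, n = 3 each).

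Among 10 tested genes of factors known to regulate these members, 4 were higher, 3 were lower and 3 did not pass. The list thus stood near the background of all genes tested, of which 34% were higher and 24.7% lower. EPAS1, for hypoxia-inducible factor 2 alpha, rose to 31.2 ± 0.40 FPKM in siPHF20L1 libraries, against 21.7 ± 0.40 FPKM in siControl libraries (SD, n = 3 each; log2 difference 0.50). EGLN1, for the oxygen sensor PHD2 and itself a known hypoxia target, fell to 10.1 ± 0.32 FPKM in siPHF20L1 libraries, against 16.4 ± 0.39 FPKM in siControl libraries (SD, n = 3 each; log2 difference -0.64). HIF1A and ARNT, named after their values were seen, encode hypoxia-inducible factor 1 alpha and the partner of both alpha subunits. HIF1A fell to 166 ± 11.4 FPKM in siPHF20L1 libraries, against 212 ± 10.6 FPKM in siControl libraries (SD, n = 3 each; log2 difference -0.35, limma, adjusted p = 0.00208). ARNT fell to 10.6 ± 0.66 FPKM in siPHF20L1 libraries, against 12.8 ± 0.32 FPKM in siControl libraries (SD, n = 3 each; log2 difference -0.25, limma, adjusted p = 0.0105). MYC rose to 79.6 ± 3.49 FPKM in siPHF20L1 libraries, against 61.9 ± 1.92 FPKM in siControl libraries (SD, n = 3 each; log2 difference 0.36). The part of these factors in the members' levels was not tested.

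Over all 54 tested genes of these lists that are no members, 25 were higher, 14 were lower and 15 did not pass, with a median of 0.19. Every siPHF20L1 library was below every siControl library in 7 of the 9 members tested, as in 27% of all genes tested, and above every one in 0 of them, as in 36.7%. In either direction the groups did not overlap in 63.7% of all genes tested.

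In order of level in siPHF20L1 libraries the members ran BSG, SLC16A3, PDHB, PDHA1, MPC1, DLAT, MPC2, PDK1, PDK3 and SLC16A1. In siControl libraries they ran BSG, SLC16A3, PDHB, DLAT, PDHA1, MPC2, PDK1, MPC1, PDK3 and SLC16A1. In siPHF20L1 libraries the values of MPC1 and DLAT overlapped, and in siControl libraries those of PDK1 and MPC1 did. The genes most like DLAT over the 6 libraries, by Euclidean distance of their centred log2(FPKM + 1) values, were HYLS1 (0.0716), C21orf59 (0.0973) and EIF2S2 (0.104). HYLS1 had 14.48, 13.04 and 13.21 FPKM in siPHF20L1 libraries, against 33.85, 33.53 and 32.87 FPKM in siControl libraries, which is 2.46-fold lower.

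The longest annotated 3′ UTRs of the members (GENCODE 29) were searched for CAAGAT and TAAGGA, words that an earlier analysis had chosen by the differences seen in these very data, so that their shares are not independent evidence. Sites of 30 bases are shown for the 3 lower members with the largest differences that hold CAAGAT and for PDHA1, which did not pass, in DNA letters on the transcript strand with the word in capitals.

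DLAT: attcattcttaaCAAGATatttatatgtta
PDHB: gatgtatccaaaCAAGATaacttatatgta
MPC2: tggaatgactatCAAGATgacctcaaacta
PDHA1: accatttctctaCAAGATacaatatttatt

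At least 1 of these words occurred in 8 of the 10 members. SLC16A3 and PDK3, both lower, held none. BSG, MPC1 and PDHB held 1, MPC2, PDHA1 and DLAT held 2, SLC16A1 held 4 and PDK1 held 8 in a 3′ UTR of 12700 nt. Among 11382 genes tested with a 3′ UTR, 57.8% of those lower and 45.9% of all others held at least 1, so that the words are frequent in both. Of the 6 members that were lower 4 held one, and so did all 3 that did not pass. These counts take no account of 3′ UTR length, which ran from 445 nt for PDHB to 12700 nt for PDK1. The part of these words in the members' levels was not tested.

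The members were also followed under 18 other settings, of which 17 gave a test. SLC16A3, MPC2, PDHB, DLAT and PDK1 were lower and passed in all 17, with log2 differences of -1.31 to -1.21 for DLAT and -0.42 to -0.29 for PDK1.

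**Figure D4:**
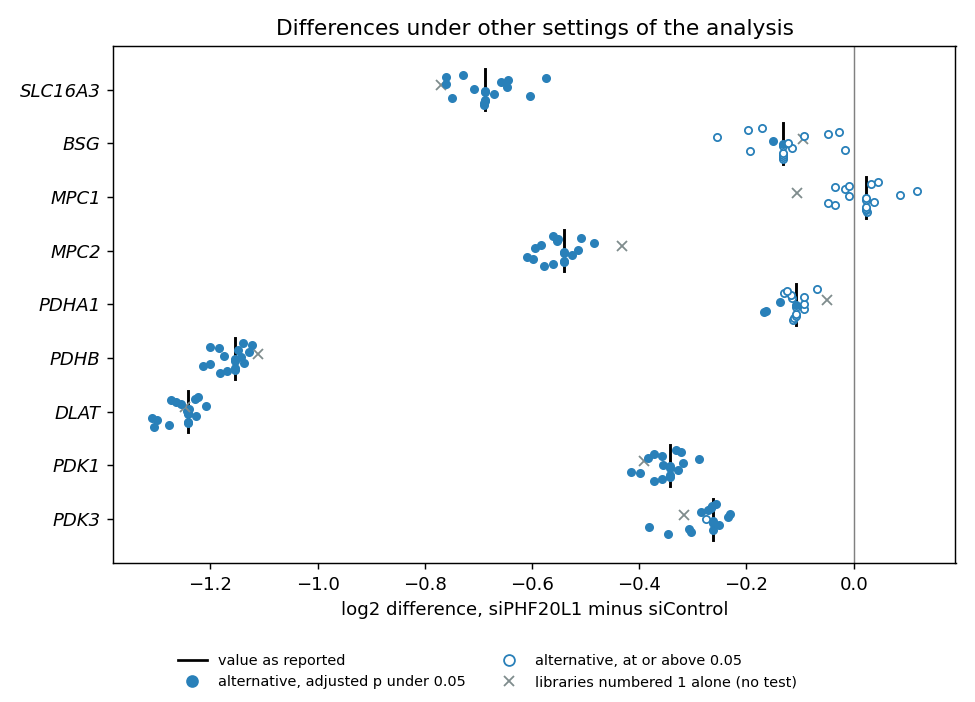
Log2 difference, siPHF20L1 minus siControl (horizontal axis), of the 9 members tested as reported (black line) and under 18 other settings of the analysis (circles, filled where the adjusted p of limma was under 0.05; crosses are the libraries numbered 1 alone, with no test). DLAT (at most -1.21) and PDHB (at most -1.11) lie farthest to the left under every setting drawn, while the points of MPC1 lie on both sides of 0.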

How the data were processed

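RNA was measured in 3 siPHF20L1 and 3 siControl libraries, grouped by their labels. Per the submitters' processing notes, Bowtie 0.12.2, TopHat2 2.1.1, HTSeq 0.6.0 and the build GRCh37 were used, with no role or order given. The values are FPKM per the file headers, deposited as 1 number per gene and library with 2 decimals. The sources used here do not give how FPKM were computed, with which annotation, or whether strand was used. The symbols of 26 genes had been turned into dates and were restored through the Entrez identifier. FPKM keep no fragment counts, so depth was estimated from the steps of low values in short transcripts. It came to 17100000 to 17500000 fragments per library, and fragment numbers are approximate.

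The 10 members and all gene lists were chosen with earlier results of these data known. Differences were tested with limma 3.58.1 (R 4.3.3) on log2(FPKM + 1), with an intensity trend, over the 11560 genes with FPKM of at least 1 in at least 3 libraries, two-sided, with Benjamini-Hochberg adjustment over all of them and a threshold of 0.05. The procedure was tested on simulated data. Ratios of 5 pairs of members were compared by exact permutation of the 6 libraries, without regard to library number. Named beside the members were genes that complete their complexes or families, and called genes among the 3 largest log2 differences of their list. The 3 genes with the smallest Euclidean distance to the most lowered member were also named. Of the listed genes, PDHA2, MPC1L and SLC5A8 were not analysed here.

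Deviations from the group means of same-numbered libraries correlated at 0.734, 0.436 and 0.419 for the numbers 1, 2 and 3, across genes. All are above 0.1, so the numbers were taken to pair the samples. Numbers 2 and 3 were not clearly told apart, since siControl 3 correlated with siPHF20L1 2 at 0.49. The main fit had no block, since the labels state no pairing, and the replicate block was an alternative. Other alternatives were pseudocounts of 0.1 and 0.5, no filter and a mean FPKM of at least 5, 3 other scalings, no intensity trend, libraries 2 and 3 averaged, taken alone or left out, and each library left out in turn.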

Additional observations from a re-analysis of the deposited data

How the results depend on the processing

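SLC16A3, MPC2, PDHB, DLAT and PDK1 kept their direction under 18 alternatives and passed limma in the 17 with a test. Between the libraries numbered 1 alone the log2 difference, siPHF20L1 minus siControl, moved to -0.43 for MPC2, -0.050 for PDHA1, -0.11 for MPC1, -0.32 for PDK3 and 0.32 for SLC16A1. PDK3 did not pass with libraries 2 and 3 averaged (-0.28, limma, adjusted p = 0.0753). PDHA1 passed with median-ratio factors (-0.17, adjusted p = 0.0364), quantile normalization (-0.16, 0.0411), the replicate block (-0.11, 0.0318) and libraries 2 and 3 alone (-0.14, 0.0405). BSG passed with the replicate block (-0.13, adjusted p = 0.0125) and with libraries 2 and 3 alone (-0.15, 0.0108). Libraries 2 and 3 lay close and may not be independent, which limits every pass with these alone. The block changed no other member's call. MPC1 turned to -0.035 with median-ratio factors, -0.048 with quantile normalization and -0.0095 with libraries 2 and 3 averaged. Without 1 library it lay between -0.035 and 0.12. The cause of these changes was not tested. Without 1 library the difference of DLD lay between -0.181 and 0.045, the highest being that without siControl replicate 1 (limma, adjusted p = 0.735).

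SLC16A1 became testable with no filter on low values (0.22, limma, adjusted p = 0.0101), the 1 member then called higher. Its difference was 1.03 with a pseudocount of 0.1 and 0.38 with 0.5, the size of a difference near 0 being set by the pseudocount. Lower members numbered 5 to 8 over the alternatives: 8 with the replicate block or libraries 2 and 3 alone, and 5 with a mean FPKM of at least 5, which removed PDK3, or with libraries 2 and 3 averaged. Calls over all genes changed with the setting too. There, 2893 to 4946 were higher and 1941 to 3846 lower, against 3926 and 2851 in the main fit. The changes in the member counts are thus no result about the members alone. Scalings moved the median of all genes by at most 0.07. Of the members, SLC16A1 and PDK3 rested on the fewest fragments.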
